A study of Danio rerio with 6 samples.

Results

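The genes described here encode 9 enzymes that turn squalene into cholesterol: sqlea, lss, cyp51, msmo1, nsdhl, hsd17b7, ebp, sc5d and dhcr7. They were chosen by symbol, as enzymes of this route, with earlier results of these data known. All 9 were found, with a single row each, among the 31624 genes of the deposited table. RNA came from whole zebrafish embryos collected 72 hours after fertilization. A wild type group of 3 samples was compared with 3 samples labelled as mutant for rhpn2, the gene for rhophilin-2. Samples carry the letters a, b and c in both groups, and values below are given in that order. The labels say nothing of the allele, its zygosity, the strain, the clutch or how many embryos went into a sample, so the p-values rest on a spread between samples that could be technical in part. Column names of the mutant samples in the deposited table add a number to the name rhpn2, and its meaning is not given. The comparison of mutant with wild type asks how the expression of these enzymes differs in rhpn2 mutants.

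Cholesterol is built in the endoplasmic reticulum. Squalene is oxidised by squalene epoxidase and closed into lanosterol, the parent of the animal sterols, by lanosterol synthase. The enzymes after that strip methyl groups from lanosterol and move or reduce its double bonds until cholesterol is formed. In vertebrates, genes of this route and of the mevalonate steps before it are classic targets of the SREBP transcription factors, which are processed to their active form when membranes hold little cholesterol. Zebrafish embryos of this age also draw cholesterol from yolk lipoproteins.

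Libraries held 14918069 to 17056923 counts, and 1066 to 1847 of them per library fell on the 9 enzyme genes. Counts of rhpn2 were 685, 755 and 743 in the wild type group and 195, 194 and 188 in the mutant group, which left 23.0% of the wild type level (95% interval 19.7% to 26.9%). The gene si:ch211-134o20.2 overlaps rhpn2 on the other strand, and reads of the pair cannot be told apart if counting ignored strand. No marker gene of liver, intestine, exocrine pancreas, yolk syncytial layer, glia, interrenal or red cells was at 0 in all 6 samples. The filter on low counts still left 2 liver, 3 exocrine pancreas, 1 yolk syncytial layer and 3 interrenal genes untested. Over the 20032 genes tested, 33.2% passed an adjusted p below 0.05, with 16.7% lower and 16.5% higher in mutants.

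Expression of 8 of the 9 enzymes fell in mutants, and none rose. The largest falls were in msmo1, ebp, sc5d and sqlea, which were left at 33.1% to 43.9% of wild type. Smaller falls were found for lss, nsdhl, cyp51 and hsd17b7, left at 62.4% to 72.8%, while dhcr7, which encodes the reductase that acts last on the route these genes follow, did not pass the test. The median log2 change over the 9 genes was -0.68, against 0.006 over all genes tested. All 9 passed the filter on low counts. The count of 8 lower genes stands beside a background of 16.7% lower, and the count of 4 that were at least 2-fold lower beside 4.76%. In CPM (counts scaled by library size and TMM factors) the groups did not overlap for these 8 genes, beside 23.7% of all genes tested that were lower without overlap. Summed over the 9 genes, the level in FPKM (reads scaled by gene length and library total) dropped from 54.6 ± 4.86 to 33.3 ± 2.11 (SD, n = 3 each).

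**Figure D1:**
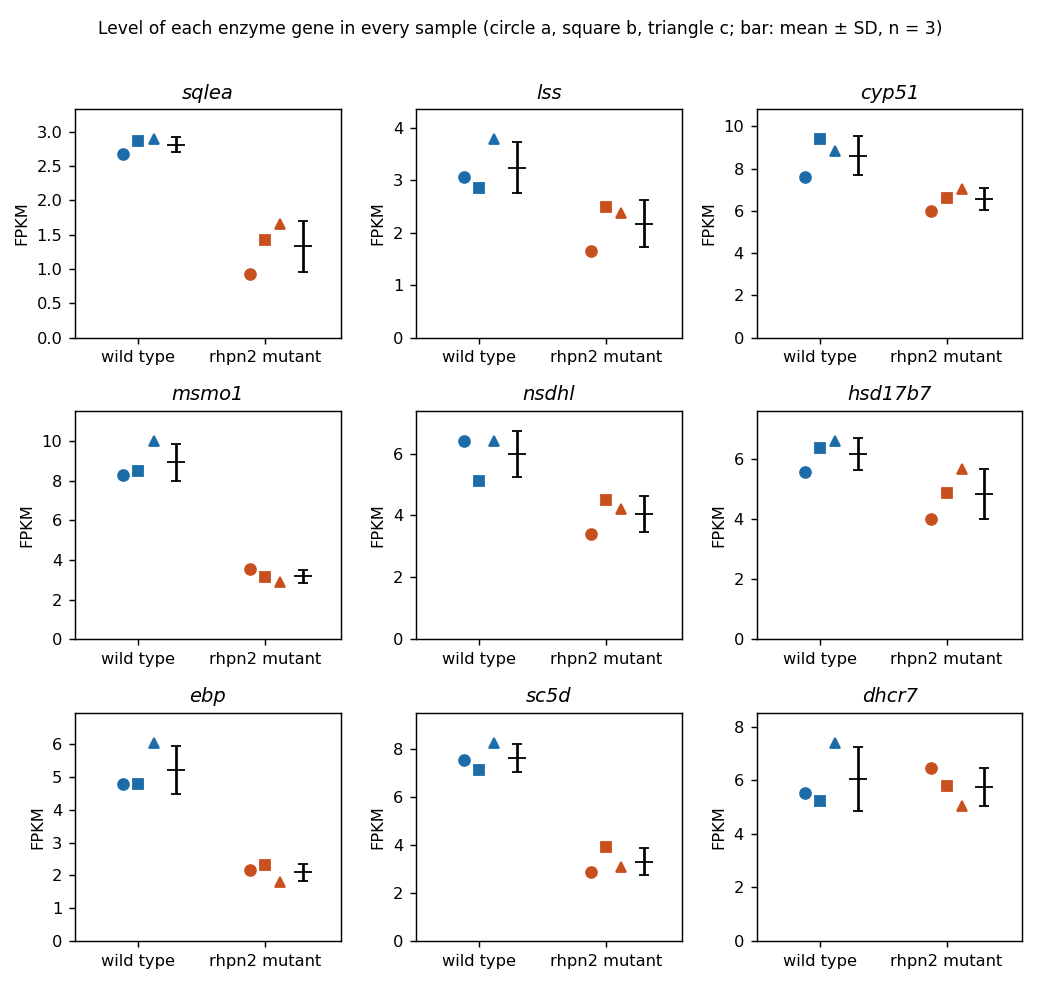
Level of each enzyme gene in FPKM (vertical axes, from 0) for each wild type and mutant sample, with the mean and SD (n = 3) beside them. The mutant samples lie below all wild type samples for 7 of the 9 genes, and overlap with them for hsd17b7 and dhcr7. The share of all genes tested that were lower without overlap was taken in CPM only (23.7%), not in FPKM.

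The gene sqlea encodes squalene epoxidase, the entry to the sterol part of the pathway and, with HMG-CoA reductase, a controlled step. It lies on chromosome 16 at 43497274 to 43510214, plus strand (ENSDARG00000079946; coordinates here are those of the deposited table, for which no genome build is given in the sources used here). Its level was 2.68, 2.86 and 2.89 FPKM in the wild type samples and 0.92, 1.42 and 1.65 FPKM in the mutant samples. The groups did not overlap, and mutant a was the lowest sample. The log2 change was -1.19 with an SE of 0.21 (edgeR adjusted p 0.00118). With limma on log2(FPKM + 1), where the pseudocount shrinks changes of low genes, it was -0.72. It was the least abundant of the enzymes per length, with 43 to 121 counts per library. A count of 43 has an exact Poisson 95% interval of 31.1 to 57.9, which covers counting error only.

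Lanosterol synthase, which folds oxidised squalene into the sterol ring system, is encoded by lss (ENSDARG00000061274, chromosome 9, 38671985 to 38690596, plus strand). Wild type samples had 3.07, 2.86 and 3.79 FPKM, and mutant samples 1.66, 2.49 and 2.38 FPKM. Every mutant sample was below every wild type sample, with mutant a again lowest. The log2 change of -0.68 (SE 0.19, edgeR adjusted p 0.0175) passed the threshold. Without wild type c the adjusted p was 0.0604 and without mutant a it was 0.0755, so the call was lost without either. It was also lost with all 6 samples kept, with limma on log2(FPKM + 0.1) (0.0534) and on log2(FPKM + 1) with no filter (0.0873). With limma on log2(FPKM + 1) and the filter, the change was -0.42 (0.0493).

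Next on the route, cyp51 encodes lanosterol demethylase, the cytochrome P450 that is also the target of azole drugs in fungi. The gene (ENSDARG00000042641, chromosome 19, 598848 to 617437, minus strand) lies inside the span of slc6a18 on the same strand, which had 8 to 17 counts per library against 266 to 364 for cyp51. FPKM of cyp51 was 7.62, 9.4 and 8.83 in the wild type samples against 6.0, 6.63 and 7.05 in the mutants. The highest mutant sample stayed below the lowest wild type sample. The log2 change of -0.50 (SE 0.12, edgeR adjusted p 0.00679) left 70.8% of wild type, with a 95% interval of 59.24% to 84.67%.

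Removal of the next pair of methyl groups takes 3 enzymes in turn, encoded by msmo1, nsdhl and hsd17b7, and their changes were unequal in size. The oxidase gene msmo1 (ENSDARG00000055876, chromosome 1, 20223614 to 20235835, minus strand) had 8.31, 8.47 and 10.01 FPKM in the wild type samples. Its mutant values were 3.52, 3.13 and 2.88 FPKM. These groups stood far apart relative to their spread. The log2 change was -1.59 with an SE of 0.15 (edgeR adjusted p 8.96e-06), a 3.02-fold fall. Over 17 alternative settings the log2 change stayed between -1.66 and -1.25.

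The decarboxylase gene nsdhl (ENSDARG00000099315, chromosome 14, 14341154 to 14353564, minus strand) had 6.41, 5.11 and 6.39 FPKM in wild type samples and 3.4, 4.51 and 4.21 FPKM in mutant samples. Its groups did not overlap, although wild type b and mutant b were close. The log2 change was -0.67 (SE 0.17, edgeR adjusted p 0.00993). For the reductase gene hsd17b7 (ENSDARG00000088140, chromosome 6, 34959968 to 34974891, minus strand), wild type samples had 5.57, 6.34 and 6.59 FPKM and mutant samples 3.98, 4.87 and 5.64 FPKM. Wild type a and mutant c overlapped in FPKM, which is scaled by library totals, but not in CPM scaled by TMM factors (lowest wild type 12.2, highest mutant 11.2). The log2 change of -0.46 (SE 0.16) passed with an edgeR adjusted p of 0.0391. That call was the least stable of the 8. It was lost without wild type b (adjusted p 0.0893), wild type c (0.0838), mutant a (0.161) or mutant b (0.0928), with library totals (0.1) and with DESeq2 (0.0566). With limma on log2(FPKM + 1) the change was -0.31 (adjusted p 0.0929).

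The genes ebp and sc5d, whose enzymes shift a double bond in the ring and add a further one, fell together with msmo1 among the largest changes. Emopamil binding protein, the isomerase, is encoded by ebp (ENSDARG00000046098, chromosome 23, 19221554 to 19227035, minus strand). It was at 4.79, 4.79 and 6.06 FPKM in the wild type group and at 2.16, 2.31 and 1.8 FPKM in the mutants. The highest mutant value was below the lowest wild type value, and the log2 change was -1.42 (SE 0.16, edgeR adjusted p 4.73e-05).

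For the desaturase gene sc5d (ENSDARG00000044642, chromosome 21, 24495074 to 24498905, minus strand), wild type samples had 7.54, 7.11 and 8.27 FPKM, against 2.86, 3.93 and 3.1 FPKM in mutant samples. Here too the groups were apart. The log2 change was -1.32 (SE 0.17, edgeR adjusted p 0.000134), which left 40.1% of wild type.

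The gene dhcr7 encodes sterol reductase, which makes cholesterol from its immediate precursor and whose loss causes Smith-Lemli-Opitz syndrome in humans. It lies on chromosome 2 at 28666537 to 28687113, minus strand (ENSDARG00000103226). Levels were 5.54, 5.22 and 7.42 FPKM in wild type embryos and 6.45, 5.79 and 5.03 FPKM in mutants. The groups overlapped, and the spread within wild type was the widest of the 9 genes, at 19.6% of the mean. The log2 change was -0.18 (SE 0.15, edgeR adjusted p 0.383), and it was -0.05 without wild type c, -0.10 without mutant c and -0.28 without wild type b. Its 95% interval ran from 70.5% to 111% of wild type. The estimates for lss and nsdhl lay below this interval, that for cyp51 (70.8%) at its lower edge and that for hsd17b7 (72.8%) inside it. These estimates carry error of their own, and the 95% interval of each of these genes overlapped that of dhcr7. The intervals therefore cannot tell whether dhcr7 changed less than these genes.

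**Figure D2:**
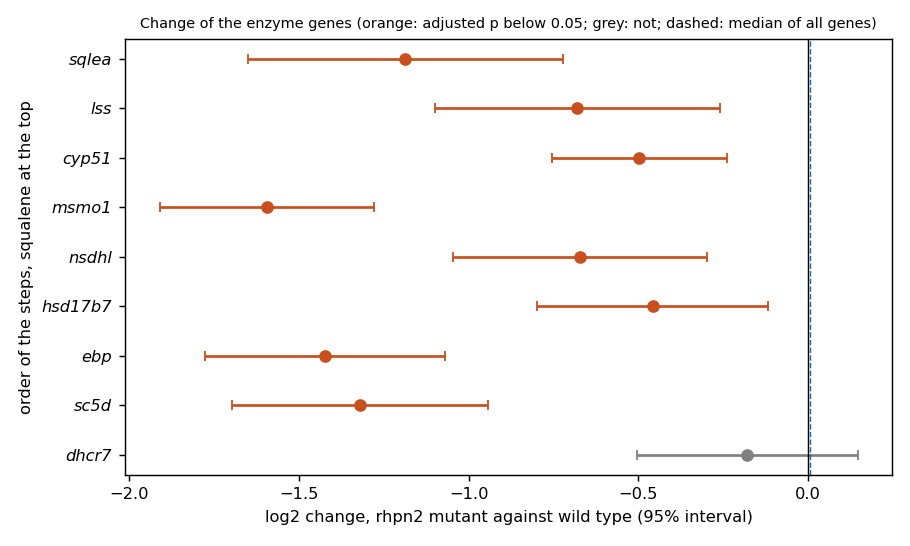
Log2 change of each enzyme gene, mutant against wild type, with its 95% interval (horizontal axis), in the order of the reactions from top to bottom. The changes of 8 genes run from -1.59 for msmo1 to -0.46 for hsd17b7, and their intervals lie below 0. The upper limit nearest to 0 among these 8 is -0.12, for hsd17b7. The interval of dhcr7 spans 0.

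The size of the change did not follow the order of the reactions. The enzymes at least 2-fold lower (sqlea, msmo1, ebp and sc5d) were interspersed with those that fell less (lss, cyp51, nsdhl and hsd17b7). The other 8 enzymes were also set against dhcr7 in the same sample, a ratio that no library scaling can alter. The reference was chosen with its lack of a call known. The FPKM ratio of msmo1 to dhcr7 was 1.5, 1.62 and 1.35 in the wild type samples and 0.546, 0.541 and 0.573 in the mutant samples. The groups were well separated, and the ratio varied little within the mutants. For ebp the ratio fell from 0.866 ± 0.0505 to 0.364 ± 0.0325 (SD, n = 3 each). The ratios of 6 of the 8 genes did not overlap between groups, and those of cyp51 and hsd17b7 did. Over all other genes tested, the ratio to dhcr7 was lower in mutants without overlap for 9.07%. An exact two-sided permutation test over the samples gave p = 0.1 for each of the 6, the smallest value that 3 samples against 3 can give, and p = 0.3 for cyp51 and 0.4 for hsd17b7. Benjamini-Hochberg adjustment over the 8 ratios gave 0.133 for each of the 6, 0.343 for cyp51 and 0.4 for hsd17b7. This test could not pass 0.05 for any ratio in this design.

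**Figure D3:**
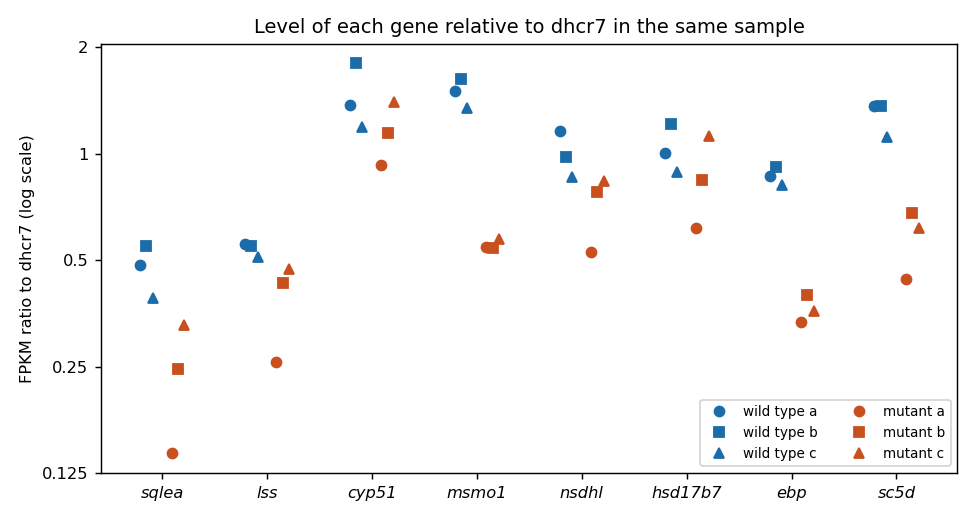
FPKM of each enzyme gene divided by that of dhcr7 in the same sample (vertical axis, log scale), for wild type and mutant samples a to c. Mutant ratios lie below all wild type ratios for 6 of the 8 genes, beside 9.07% of all other genes tested, with msmo1 at 0.541 to 0.573 in mutants and 1.35 to 1.62 in wild type.

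Levels per length also changed in order. In wild type, msmo1 (8.93 ± 0.939 FPKM), cyp51 (8.62 ± 0.909) and sc5d (7.64 ± 0.586) were highest (SD, n = 3), with overlapping samples between neighbours. A step down followed to hsd17b7 (6.17 ± 0.532), dhcr7 (6.06 ± 1.19), nsdhl (5.97 ± 0.745) and ebp (5.21 ± 0.733), where each overlapped with its neighbour. The samples of dhcr7 were spread widely enough to reach those of sc5d (7.42 FPKM in wild type c against 7.11 in wild type b). The pair lss and sqlea was lowest, at 3.24 ± 0.488 and 2.81 ± 0.114 FPKM, with samples that overlapped each other but not those of ebp.

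In mutants cyp51 (6.56 ± 0.528 FPKM) and dhcr7 (5.76 ± 0.711) led, and msmo1 (3.18 ± 0.323) stood below hsd17b7 (4.83 ± 0.831) and nsdhl (4.04 ± 0.574). Neighbours in the mutant order overlapped except for a gap between msmo1 and lss (2.18 ± 0.451) and another between ebp (2.09 ± 0.262) and sqlea (1.33 ± 0.373).

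Samples also differed within groups. Wild type c had the highest FPKM of its group for 7 of the 9 genes, and mutant a the lowest of its group for 6. Mutant a was at the same time the highest mutant sample for msmo1 and dhcr7, so the order of samples was not the same for all 9 genes. Counting error can alter such orders, and whether the genes varied together was not tested. Without mutant a the log2 change of hsd17b7 was -0.32 and that of lss was -0.50, with 6 of the 9 genes still passing, and without wild type c also 6 passed. Calls over all genes dropped as well, to 4968 of 20293 without mutant a and 5766 of 20269 without wild type c, against 6654 of 20032. The genes sqlea, msmo1, nsdhl, ebp and sc5d passed under all 17 alternatives tried, and cyp51 under all but limma with no filter on low values (adjusted p 0.0505).

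**Figure D4:**
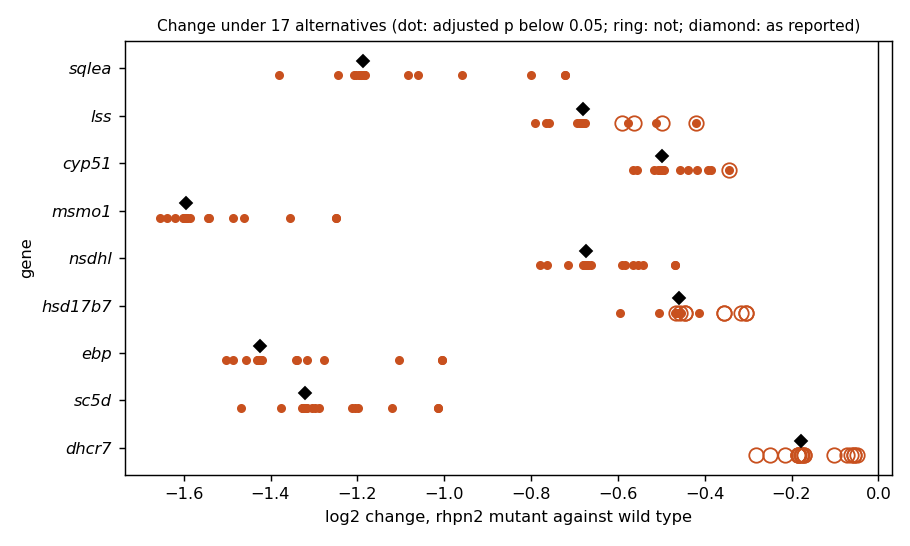
Log2 change of each enzyme gene (horizontal axis) as reported and under 17 alternatives in scaling, filter, test and samples; a ring marks an alternative in which the gene did not pass. All values lie below 0, and rings appear for lss, cyp51, hsd17b7 and dhcr7, the last in all 17 alternatives.

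The 9 genes lie on 9 different chromosomes, none of them chromosome 7, which holds rhpn2 (start 38078407). No other gene overlaps 8 of them, cyp51 being the exception. By the table's KEGG orthology labels, faxdc2 shares a label with msmo1, and no other gene of the table shares a label with any of the 9. The level of faxdc2 was 27.6 ± 1.79 FPKM in wild type against 28.8 ± 2.92 FPKM in mutants, and its log2 change of -0.05 did not pass (SE 0.11, edgeR adjusted p 0.765).

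Of 7 other enzymes and partners that act between squalene and cholesterol, 1 fell, 2 rose and 4 did not pass (median log2 change -0.05). Over all genes tested the shares were 16.7% lower and 16.5% higher. The haem-binding protein gene pgrmc1, a partner of P450 enzymes, fell by 0.40 on the log2 scale. The electron donor gene cyb5r3 rose by 0.43 and the nuclear envelope reductase gene lbr by 0.27. Without mutant b the calls of pgrmc1 and cyb5r3 were lost (adjusted p 0.0574 and 0.0529), and that of lbr was lost without wild type c, mutant a, mutant b or mutant c (0.0657 to 0.146). The reductase that shares the step of lbr, tm7sf2, missed the threshold (log2 change -0.50, SE 0.18, edgeR adjusted p 0.052). It passed without mutant a (-0.65, adjusted p 0.036), with upper quartile scaling (0.0496), with no filter on low counts (0.0476) and with limma after quantile normalization (0.0334).

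Upstream, 6 of 11 genes of the mevalonate steps and squalene synthesis fell and none rose, beside a background of 16.7% lower and 16.5% higher. The median log2 change was -0.34. The falls included hmgcra, a copy of the rate-limiting HMG-CoA reductase, from 4.68 ± 0.919 to 1.56 ± 0.228 FPKM (log2 change -1.68, SE 0.16, edgeR adjusted p 1.39e-05). HMG-CoA synthase gene hmgcs1 and isopentenyl diphosphate isomerase gene idi1 changed by -1.11 and -1.27. The synthase gene fdps changed by -0.32, a call lost without wild type b, mutant a or mutant b (adjusted p 0.0701 to 0.0918), and with library totals (-0.21, adjusted p 0.0989). The call was also lost with limma on log2(FPKM + 1), with the filter (adjusted p 0.0922) or without it (0.0912). Limma on log2(FPKM + 0.1) lost it too (adjusted p 0.0923). The second reductase copy, hmgcrb, looked up after the values were seen, was at 13.5 ± 0.92 FPKM in wild type against 13.7 ± 0.872 FPKM in mutants, with a log2 change of -0.09 (SE 0.09, edgeR adjusted p 0.457).

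Genes for sterol sensing and lipoprotein uptake included 9 that fell and 1 that rose among 23 tested, median -0.37. The shares over all genes tested were 16.7% lower and 16.5% higher. The largest falls of the list were in a transporter, in receptors and in a sensor. The intestinal cholesterol transporter gene NPC1L1 changed by -1.83 (-0.81 with limma on log2(FPKM + 1)), the low density lipoprotein receptor genes ldlra and ldlrb by -1.55 and -1.10, and the sterol sensor gene insig1 by -1.57. The gene insig1 lies on the chromosome of rhpn2, and a part of linkage in its fall was not tested. Both SREBP genes were looked up after the values were seen. The gene srebf1 had 8.42, 14.85 and 13.41 FPKM in wild type embryos against 9.8, 9.62 and 9.46 FPKM in mutants, and wild type a lay below all mutant samples. Its log2 change of -0.44 (SE 0.15) passed with an edgeR adjusted p of 0.037. The call was lost without wild type b (-0.29, adjusted p 0.169), without wild type c or any 1 of the mutant samples (0.0822 to 0.0982), with library totals (0.143) and in all 4 limma settings (0.0701 to 0.313). The gene srebf2 was at 25.6 ± 4.05 FPKM in wild type against 25.8 ± 1.46 FPKM in mutants (log2 change -0.09, SE 0.11, edgeR adjusted p 0.543). Whether the lists differ from each other in their share of falls was not tested.

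**Figure D5:**
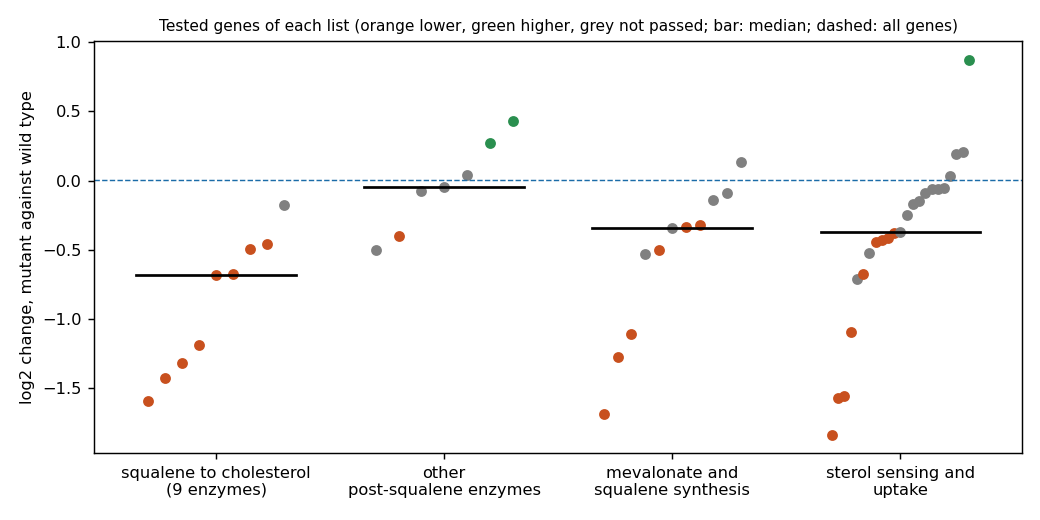
Log2 change of each tested gene, mutant against wild type (vertical axis), for the 9 enzymes and 3 related lists, with the median of each list as a bar. The median is -0.68 for the 9 enzymes, -0.05 for other post-squalene enzymes, -0.34 for the mevalonate steps and -0.37 for sterol sensing and uptake.

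Marker genes of several organs and cell types were read in the same samples. Of all genes tested, 16.7% were lower and 16.5% higher in mutants. Sums in FPKM, here and below, cover every gene of a list, tested or not. In bulk samples, fewer cells of a type and less RNA per cell cannot be told apart. Of 14 liver genes tested, 9 fell, none rose and 5 did not pass. The summed level of all 16 liver genes was 5796 to 6926 FPKM in wild type and 4194 to 5604 in mutants. Most of this sum came from apoa2 (3520 to 4227 FPKM in wild type, 2726 to 3832 in mutants), which did not pass and whose groups overlapped. All 11 intestine genes fell, with sums of 157 to 211 FPKM in wild type and 78.4 to 95.4 in mutants. Some liver and intestine genes had fewer than 10 counts in every mutant sample and passed the filter through wild type alone. Such a filter favours falls, so these counts of falls are in part set by it. Of 11 exocrine pancreas genes tested 10 fell, with sums over all 14 genes of the list of 74.2 to 173 and 25.3 to 42.0 FPKM. The part of these organs in the falls of the sterol enzymes was not tested.

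Yolk syncytial layer genes had 1 fall and 2 rises among 7 tested (sums 6157 to 6899 FPKM in wild type, 5609 to 7529 in mutants). The background for this and the next counts is again 16.7% lower and 16.5% higher. Myelinating glia had 4 falls and 2 rises among 10 (63.6 to 68.1 and 61.4 to 67.3 FPKM), radial glia 2 of each among 7 (957 to 1036 and 1037 to 1149 FPKM), and interrenal cells 1 of each among 6 (11.2 to 12.2 and 9.5 to 11.8 FPKM). Red cell genes had 5 rises and 1 fall among 11, with sums of 3208 to 3703 FPKM in wild type and 4044 to 5286 in mutants.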

How the data were processed

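The authors deposited a table of 31624 genes with read counts and FPKM values for each of the 6 samples, exonic gene sizes, coordinates and symbols. The deposited counts are whole numbers with no normalization. The deposited FPKM values equal the count per kilobase of exonic size and per 1e6 counts of the sample's own total, to within 0.005 when recomputed. Tools named, without their roles, in the submitters' processing notes are STAR 2.7.10a, Salmon 1.9.0, fastp 0.23.2 and bcl2fastq 2.20.0.422. Neither the genome build nor the use of strand in counting is given in the sources used here. Total RNA was isolated with TRIzol, and an NEBNext Ultra kit was used for libraries, per the labels' protocols.

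Counts were tested for mutant against wild type in edgeR 4.0.16 (R 4.3.3) by its quasi-likelihood test after filterByExpr (minimum count 10, minimum total 15) and TMM scaling (factors 0.922 to 1.07), with group as the only term and Benjamini-Hochberg adjustment over 20032 genes at 0.05. The step was tested on simulated data. The SE is the log2 change divided by the square root of F, and intervals (95%) use the test's degrees of freedom. Between libraries of a group, chi-square over its degrees of freedom was 4.22 to 14.5, more than counting noise alone gives, so none was taken as a repeat deposit of another, and each was counted as a sample. Library depth was 14918069 to 17056923 counts.

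The 9 members and all lists were chosen with earlier results of these data known. Of 154 list symbols 150 were matched, in the table or through reference name tables. Named genes were the 9 enzymes, rhpn2, the 4 tested genes with the smallest p in each pathway list, and 5 genes of like profile. Genes named beyond this rule, chosen after their values were seen, were srebf1, srebf2, hmgcrb, abca1b, faxdc2, apoa2, slc6a18 and si:ch211-134o20.2. A gene of the lists is not reported here and enters no list count. Alternatives covered scaling, filters, DESeq2 1.42.0, limma 3.58.1 on log2(FPKM + 1) or log2(FPKM + 0.1), replicate letter as a block, and leaving out each sample. Promoter and protein sequences were not used here.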

Additional observations from a re-analysis of the deposited data

How the results depend on the processing

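Across 17 alternatives, 5 to 8 of the 9 enzymes were lower and none was higher in mutants. The count was 5 with limma on log2(FPKM + 1) and no filter on low values, and the cause was not tested. In that setting 5952 of 26356 genes changed, and 63.2% of these were higher. The share of all genes that were lower was not taken for each alternative. Leaving out each sample in turn gave 6 to 8, with 4886 to 6710 genes changed among all tested. No log2 change of an enzyme or of rhpn2 changed sign, and rhpn2 ranged from -2.17 to -1.70. Genes changed in mutants numbered 4886 to 6984 against 6654, and lower genes of the other pathway lists 18 to 28 against 25. With library totals the median log2 change of all genes moved from 0.006 to 0.113 and the share of changed genes that were higher from 49.7% to 65.0%. It was 66.0% with limma on FPKM and 50.9% after quantile normalization, under which 7 and 8 enzymes were lower.

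Log2 changes of 3 genes that did not pass turned positive in some settings, and none passed there. With library totals they were 0.0600 for faxdc2, 0.015 for hmgcrb and 0.014 for srebf2. With limma on log2(FPKM + 1), with or without the filter, they were 0.056, 0.0142 and 0.0237, and on log2(FPKM + 0.1) they were 0.0577, 0.0151 and 0.0249. Leaving out each sample in turn gave -0.149 to 0.0149 for faxdc2. The cause was not tested.

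With the replicate letter as a block (replicate block), 8 enzymes were lower and 5356 genes changed, while lbr, fdps and srebf1 lost their calls (adjusted p 0.0903, 0.0612 and 0.0545). Samples of the same letter did not deviate together (correlations -0.116, -0.049 and -0.162 over 20032 genes). With 3 samples per group, these values cannot tell whether the letters mark pairs. Depth limits sqlea most: at 43 counts the counting error alone reaches 34.7% above the value.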

Other observations

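Genes that use or export cholesterol were read as well. Over all genes tested, 16.7% were lower and 16.5% higher. Of 9 tested genes of sterol esterification and bile acid or oxysterol synthesis, 5 fell and 1 rose (median log2 change -0.72). The bile acid synthesis gene cyp7a1 dropped from 1.97 ± 0.437 to 0.133 ± 0.0451 FPKM, with a log2 change of -3.94 (SE 0.36, edgeR adjusted p 8.99e-06; -1.38 with limma on log2(FPKM + 1)). Its counts were 70, 44 and 64 in wild type samples a to c against 6, 3 and 4 in mutant samples a to c. In the same list cyp8b1, which shapes bile acid composition, changed by -1.86, the brain cholesterol hydroxylase gene cyp46a1.1 by -1.49 (-0.85 with limma on log2(FPKM + 1)) and hsd3b7 by -0.72. Of 9 tested genes of the liver X receptor and sterol efflux list, 4 fell and 1 rose, with a median of -0.40. The desaturase genes scd and scdb changed by -2.31 and -1.05, and lpcat3 by -0.40 (adjusted p 0.0509 with limma and no filter on low values). Of the cholesterol exporter copies, abca1a changed by -0.51. The more abundant copy, abca1b, looked up after the values were seen, lay in the other direction and did not pass. It was at 23.5 ± 2.85 FPKM in wild type against 31.6 ± 4.29 FPKM in mutants (log2 change 0.33, SE 0.12, edgeR adjusted p 0.0552). The gene scd was low in both groups (0.943 and 0.197 FPKM), with 8, 6 and 1 counts in mutant samples, and with limma and no filter it changed by -0.69. It too passed the edgeR filter through wild type alone. Both cyp7a1 and scd are included in the falls counted for their lists.

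Among 10309 other tested genes with a mean of at least 5 FPKM, the genes whose centred log2 CPM over the 6 samples lay nearest to the mean profile of the 9 enzymes were abcb5, si:ch73-204p21.2, zgc:158296, stk10 and st14b, with root mean square distances of 0.0493 to 0.0747. The enzymes themselves lay at 0.154 (nsdhl) to 0.399 (dhcr7) from their own mean profile. They were not picked by distance, while the 5 genes were picked as the nearest of 10309, so these ranges cannot be compared. In a comparison of 2 groups this measure mostly reflects the size of the group difference, which for these 5 genes was a log2 change of -0.94 to -0.82.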
